A study of Mus musculus with 20 samples.

Results

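The clustered protocadherin genes were described in mouse embryonic fibroblasts (MEFs) with and without the protein PML. Members were the genes of the deposited RNA tables whose symbol begins with Pcdha, Pcdhb or Pcdhg, which gave 59 of the 23266 genes named in all 4 tables. They comprised 15 Pcdha, 22 Pcdhb and 22 Pcdhg genes. By symbol, 58 of them were found among the genes that RefSeq places on GRCm38.p6, which mm10 is built on. The exception, Pcdha4-g, matched a synonym of Gm37013 and was not placed on the map.

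Clustered protocadherins are cell surface adhesion proteins of the cadherin superfamily, best known from neurons, where each cell expresses its own combination and cells carrying the same combination recognise each other. In the alpha and gamma clusters each variable first exon has its own promoter and is spliced to constant exons that all genes of the cluster share, so their proteins differ outside the cell and share a cytoplasmic tail. Each beta gene is a single exon that encodes a whole protein and has no such shared tail. The promoters are known to be chosen with the help of CTCF and cohesin, and unused promoters are known to be held silent by DNA methylation and by H3K9me3, a histone mark of heterochromatin written at these clusters by SETDB1. H3K27me3 is the mark of Polycomb silencing, and H3.3 is a histone H3 variant that is deposited outside replication.

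The cells were fibroblasts from mice of the C57BL/6 background, either PML knock-out (KO) or wild type (WT), grown under proliferating conditions and, for ChIP, to confluency. Chromatin immunoprecipitation (ChIP) had 1 library per genotype for each of H3K9me3, H3K27me3, H3.3 with a Flag tag, H3.3 with an HA tag, H3 and PML, and the cells for H3.3 had been nucleofected with the tagged histone, so H3.3 calls describe introduced and not endogenous protein. RNA came from untransfected cells, as 3 numbered replicates per genotype that the authors pooled into 1 table per genotype (the numbered pair) and as 1 further sample per genotype (the unnumbered pair). Every value below therefore has no replicate and no SD, no test between genotypes was possible, and differences are differences between single libraries or tables.

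On mm10 the alpha genes lay on chromosome 18 from 36930285 to 37188897, the beta genes from 37264998 to 37521419 and the gamma genes from 37661775 to 37841873. These spans were 259, 256 and 180 kb long and ran from the first to the last annotated base of each cluster. In both alpha and gamma the C-type genes (Pcdhac1, Pcdhac2, Pcdhgc3, Pcdhgc4 and Pcdhgc5) came last, nearest to the constant exons. Taf7, a gene for a TFIID subunit, lay between the beta and gamma clusters, and Diaph1, a formin gene, followed the gamma cluster. The ChIP files were lists of called regions. Cover is the share of a span's bases that lay inside such regions, and it says nothing of how strongly a base was marked.

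H3K9me3 cover was lower in KO over the alpha and beta clusters and nearly the same over the gamma cluster. The beta span was 43.8% covered in KO and 100% covered in WT. The alpha span was 37.4% covered in KO and 81.1% in WT, and the gamma span 76.2% in KO and 82.3% in WT. Over the 3 spans together cover was 49.8% in KO and 88.4% in WT, a difference of -38.6 percentage points. No base of the spans was called for H3K9me3 in KO alone, whereas 268 kb were called in WT alone. The gap between alpha and beta was also lower, 27.6% covered in KO and 77.5% in WT. The 100 kb before the alpha cluster and the gap between beta and gamma were 100% covered in both genotypes. Cover of the whole of chromosome 18 was also lower, at 12.0% in KO and 26.0% in WT, while over chromosomes 1 to 19 and X it was 28.6% in KO and 32.7% in WT. The covered length in KO was 46.1% of that in WT over the alpha span, 43.8% over the beta span and 92.6% over the gamma span. The same share was 46.2% for chromosome 18 and 87.5% for chromosomes 1 to 19 and X. The alpha and beta values were thus near that of their chromosome and far below that of the genome, and the part of a chromosome-wide difference between the libraries in the result was not tested. Over start windows alone the difference was -17.3 points. With only the 250 Mb of highest signal per library it was -22.3 points, and the alpha span was then 0% covered in both genotypes.

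The difference had sharp borders along the chromosome. In WT a single H3K9me3 region of 575 kb (37222001 to 37797000) held the starts of 41 members, from Pcdhb1 to Pcdhga12. In KO the corresponding region was 381 kb long (37409001 to 37790000) and began just before Pcdhb10, so it held 32 starts. The stretch from Pcdhb1 to Pcdhb9 was 0% covered in KO and 100% covered in WT, whereas the stretch from Pcdhb10 to Pcdhb22 was 100% covered in both genotypes. The alpha cluster was divided in the same manner. The stretch from the start of Pcdha1 to that of Pcdha12 was 100% covered in both genotypes, and the stretch from Pcdhac1 to the end of the cluster was 0% covered in KO and 50.5% in WT. In the gamma cluster the stretch from the start of Pcdhga1 to that of Pcdhga12 was 100% covered in both.

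The authors' signal value of these regions is their own measure per region and was ranked here only within a library. By that rank the beta and gamma domain stood high in both genotypes. In KO the 381 kb region had a signal of 23.0, above that of 91.0% of the 10835 regions of its library, and it was longer than 97.1% of them. In WT the 575 kb region had a signal of 14.6, above 92.2% of 20732 regions, and was longer than 99.0% of them. The alpha domain ranked lower. Its KO region of 199 kb (36828001 to 37027000) had a signal of 6.19, above 26.5% of the library's regions, and its WT region of 317 kb (36807001 to 37124000) a signal of 3.08, above 43.0%. Short H3K9me3 regions at Pcdhgc4 and Pcdhgc5, of 9 kb in KO with a signal of 28.8 and of 13 kb in WT with a signal of 9.92, stood apart from the long domain.

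H3K27me3 cover differed in the opposite direction, again over alpha and beta and not over gamma. The beta span was 88.7% covered in KO and 51.3% in WT. The alpha span was 72.9% covered in KO and 45.1% in WT, and the gamma span 16.8% in KO and 19.6% in WT. Over the 3 spans together cover was 64.2% in KO and 40.7% in WT, a difference of 23.4 percentage points, with 168 kb called in KO alone and 5 kb in WT alone. Chromosome 18 as a whole was 30.3% covered in KO and 32.2% in WT. Chromosomes 1 to 19 and X were 39.6% covered in KO and 37.4% in WT. Cover was also higher in KO just outside the spans. The 100 kb before the alpha cluster was 84% covered in KO and 33% in WT. The gap between alpha and beta was 100% covered in KO and 30.4% in WT, and that between beta and gamma 85.8% and 62.2%. The 100 kb after the gamma cluster was 0% covered in both genotypes. The difference was thus not confined to the gene spans. H3K27me3 was in 5 regions in KO, of up to 271 kb, and in 12 regions in WT, of up to 64 kb. The longest KO region (37102001 to 37373000) ran from upstream of Pcdhac2 past Pcdhb8. Its signal of 2.01 was above that of 18.8% of the 12328 regions of its library, so it was long and ranked low. The WT regions in that stretch were shorter and of mixed rank among the 17668 regions of their library. Those at Pcdhac2 and Pcdhb1 ranked above 74.6% and 69.8% of them. Those at the end of the alpha span and from Pcdhb2 to Pcdhb6 ranked above 9.06% and 9.58%. Low ranks were thus found in both genotypes. The size of the H3K27me3 difference depended on which regions were kept. It was 31.7 points with regions of a signal of at least 1 and 16.9 points with a signal of at least 3. These cut-offs set signals of different libraries side by side. At the cut-off of 1 the KO cover stayed at 64.2%, whereas the WT cover became 32.5%. The difference was 0 when only the 250 Mb of highest signal of each library were kept, since neither library then had a region in the spans.

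**Figure D1:**
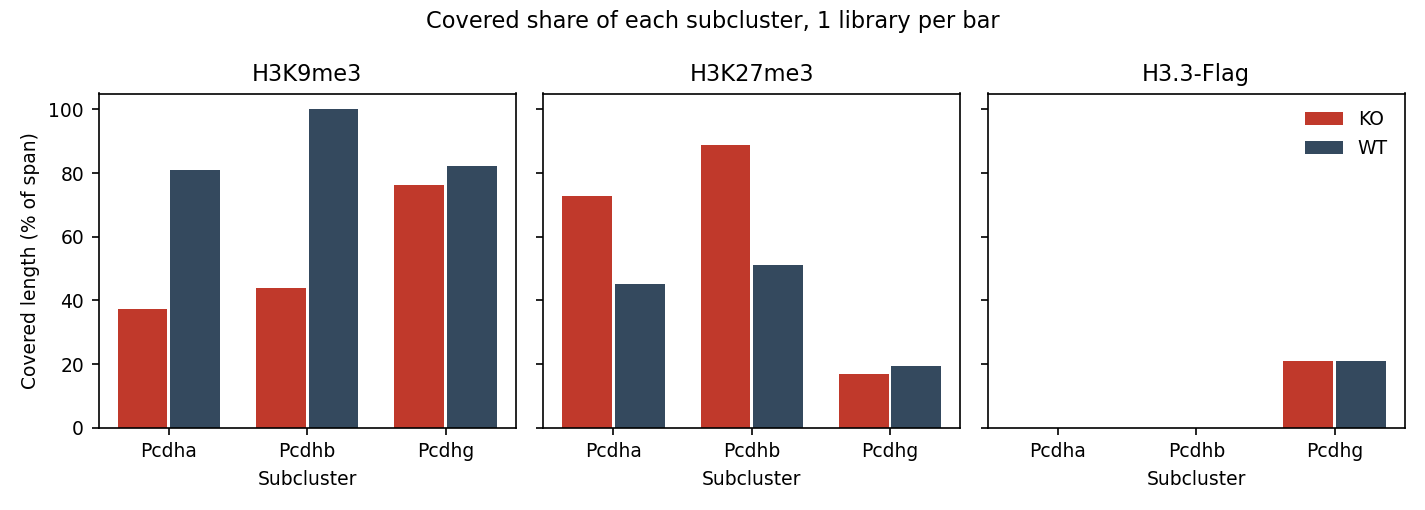
Cover in percent of each subcluster's span for H3K9me3, H3K27me3 and H3.3-Flag, KO bars in red left of WT bars in blue, 1 library per bar. H3K9me3 was lower and H3K27me3 higher in KO over Pcdha and Pcdhb, and Pcdhg differed by -6.11 and -2.78 points.

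When both marks were read together, the beta cluster contained no base without either mark in WT, and 11.3% of its bases had neither in KO. H3K27me3 without H3K9me3 covered 44.8% of the beta span in KO and 0% in WT, and H3K9me3 without H3K27me3 covered 0% in KO and 48.7% in WT. Both marks together covered 43.8% of it in KO and 51.3% in WT. Of the beta bases with H3K27me3 alone in KO, 67 kb had H3K9me3 alone in WT and 48.0 kb had both marks in WT. The 29 kb with no call in KO had H3K9me3 alone in WT. Over the alpha span, H3K27me3 alone covered 35.9% in KO and 9.63% in WT. The gamma span was mainly H3K9me3 alone in both genotypes, at 59.4% in KO and 62.7% in WT. Genome-wide, both marks together covered 21.6% of the analysed bases in KO and 15.9% in WT. Of all H3K9me3 length there, 75.8% also had H3K27me3 in KO and 48.8% in WT. H3K9me3 alone was thus a smaller part of H3K9me3 in KO genome-wide as well. Of all H3K27me3 length, 54.7% also had H3K9me3 in KO and 42.6% in WT. H3K27me3 alone was thus a smaller part of H3K27me3 in KO genome-wide, unlike over the beta span.

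**Figure D2:**
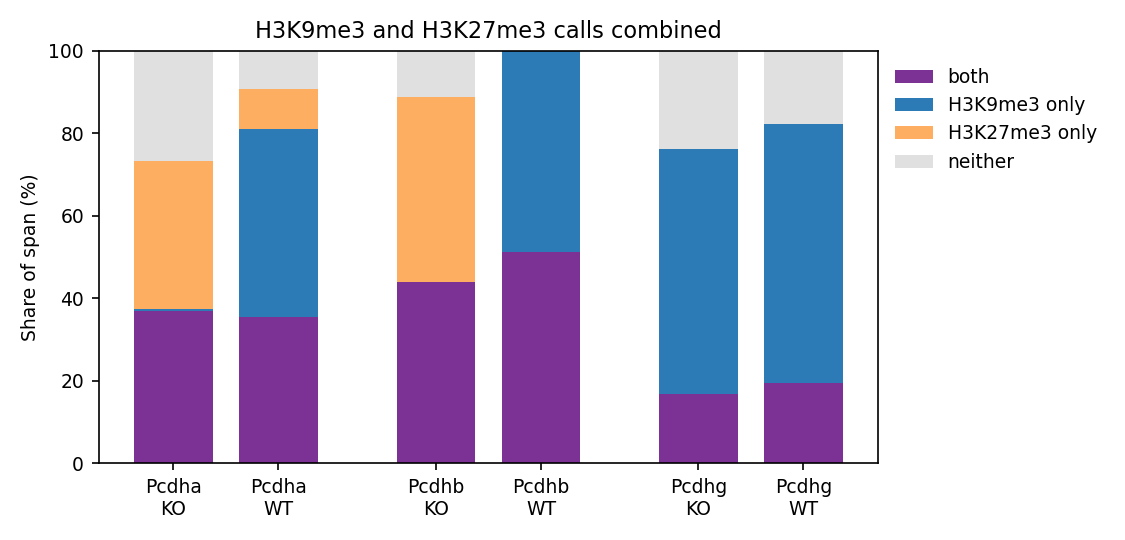
Share in percent of each subcluster's span called for both marks, H3K9me3 only, H3K27me3 only or neither, with the KO bar left of the WT bar, 1 library of each mark per genotype. H3K27me3 only took 44.8% of Pcdhb in KO and 0% in WT, and Pcdhg kept a similar make-up.

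Promoters were read through a start window from 1 kb before to 3 kb after the annotated start, called for a mark when at least 50% of it was covered. H3K9me3 was called at 46 of 58 member starts in KO, where 23.4% of 17274 protein-coding genes on other chromosomes were called, and at 56 of 58 in WT, where 18.6% of those genes were called. The 10 starts called in WT only were those of Pcdhac1 and of Pcdhb1 to Pcdhb9, and no start was called in KO only. Pcdhac2 and Pcdhgc3 were called in neither genotype. H3K27me3 was called at 41 starts in KO, against 33.7% of the other genes, and at 38 starts in WT, against 35.2%. All 14 placed alpha starts had H3K27me3 in both genotypes. Pcdhb7, Pcdhb8, Pcdhb19 and Pcdhb20 had it in KO only and Pcdhga5 in WT only.

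Both silencing marks lay on 31 starts in KO, against 17.8% of the other genes, and on 37 starts in WT, against 9.52%. H3K27me3 alone lay on 10 starts in KO, which were Pcdhac1, Pcdhac2 and Pcdhb1 to Pcdhb8. In WT it lay on 1 start, that of Pcdhac2. Among the other genes H3K27me3 was called at 33.7% and both marks at 17.8% in KO, and at 35.2% and 9.52% in WT. H3K27me3 alone was thus common among those genes too, and more so in WT than in KO. Pcdhb9 and Pcdhgc3 had neither mark in KO, and Pcdhgc3 alone had neither in WT. The call for Pcdhb9 in KO was a near miss, since its start window was 46.4% covered by H3K27me3. The members share long regions and are not independent of each other, so these counts describe a few domains and not 58 separate promoters.

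Tagged H3.3 marked the far end of the gamma cluster in both genotypes and was not called over the alpha or beta spans. H3.3-Flag covered 21.0% of the gamma span in KO and 21.0% in WT, and H3.3-HA covered 19.9% in KO and 19.9% in WT. The lists themselves were alike in extent for Flag, with 11.8% of chromosome 18 in KO and 11.2% in WT, and unlike for HA, with 11.3% in KO and 2.01% in WT. Over chromosomes 1 to 19 and X, H3.3-HA covered 14.6% in KO and 2.86% in WT. The H3.3-Flag region ran from 37804001 to 37862000 in KO and from 37804001 to 37866000 in WT, and the H3.3-HA region from 37806001 to 37857000 in KO and from 37806001 to 37851000 in WT. From the start of Pcdhgc3 to the end of the cluster both tags covered 100% in both genotypes. These regions continued past the gamma cluster into Diaph1. The H3.3-Flag region had a signal of 9.48 in KO, above that of 22.7% of the 20641 regions of its library. In WT it had 30.7, above that of 35.7% of 28213 regions, so it ranked low in signal in both genotypes.

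With H3.3-Flag, 3 of 58 member starts were called in KO, where 31.8% of the other genes were called, and 3 of 58 in WT, where 36.8% were called. With H3.3-HA, 3 starts were called in KO, against 26.5% of the other genes, and 3 in WT, against 18.3%. The 3 were Pcdhgc3, Pcdhgc4 and Pcdhgc5 each time. Pcdhgc3 was the only member with H3.3 and no silencing mark at its start, whereas Pcdhgc4 and Pcdhgc5 lay inside both H3.3 and H3K9me3 regions in KO and in WT. The H3.3-HA calls of KO rested on a region with a signal of 2.57, above that of 67.4% of the 1759 regions of its library. Those of WT rested on a region with a signal of 6.37, above that of 8.17% of the 6730 regions of its library. With a minimum signal of 3 the KO cover became 0. That cut-off sets signals of different libraries side by side, and within its own library the KO region ranked higher than the WT region did. A second H3.3-Flag region, of 2 kb in KO and 3 kb in WT, lay at the start of Taf7 and touched no member.

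H3 and PML regions did not touch the 3 spans in either genotype. H3 covered 0% of the spans in KO and in WT, against 11.3% of chromosome 18 in KO and 8.09% in WT. The nearest PML regions of WT ended 6.68 Mb before the alpha cluster and began 7.64 Mb after the gamma cluster. The clusters were therefore outside the called PML regions.

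RNA of the alpha and gamma genes could not be resolved by member. The RNA tables gave FPKM, fragments scaled to transcript length and to the mapped total. All 15 Pcdha and 22 Pcdhg genes stood together on a single line of 37 genes in every table, 1 of 267 such lines in the numbered tables and 271 in the unnumbered ones. How the authors' software formed the value of that line is not given in the sources used here, so no alpha or gamma gene has an RNA value of its own. The line had 76.0 FPKM in KO and 65.7 FPKM in WT in the numbered pair, and 107 FPKM in KO and 137 FPKM in WT in the unnumbered pair. It was thus slightly higher in KO in the one and lower in KO in the other, with differences in log2(FPKM + 1) of 0.21 and -0.36. Among all lines it ranked 913 in KO and 1418 in WT of 22996 in the numbered tables. In the unnumbered tables it ranked 702 in KO and 509 in WT of 23010. At least 93.8% of lines were thus lower in every table. Most other lines name 1 gene, so this rank belongs to the line of 37 genes and not to any member.

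The 22 beta genes each had a line of their own and were low. In the numbered pair their median was 0.275 FPKM in KO and 0.0819 FPKM in WT, with maxima of 4.76 FPKM in KO and 2.65 FPKM in WT. In the unnumbered pair the median was 0.362 FPKM in KO and 0.459 FPKM in WT, with maxima of 9.70 FPKM in KO and 5.62 FPKM in WT. Pcdhb1 was listed at 0 in all 4 tables. The other members listed at 0 were Pcdhb4 and Pcdhb6 in the numbered WT table and Pcdhb9 in the unnumbered KO table. Since the read depth is unknown, a listed 0 gives no upper limit.

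The beta RNA came mainly from the genes at the far end of the cluster. Pcdhb14 to Pcdhb22 gave 86.7% of the summed beta FPKM in KO and 96.5% in WT in the numbered pair, and 91.9% in KO and 85.3% in WT in the unnumbered pair. Pcdhb17 and Pcdhb22 were the top 2 genes of every table, and Pcdhb20 in the numbered and Pcdhb19 in the unnumbered tables came next. The order of the 22 genes was similar among tables, with Spearman coefficients from 0.822 to 0.929 over the 22 genes for the 6 pairs of tables. These points share the gene lengths and sequence similarity of the family, and reads that fit several of these closely related genes could be assigned to either, so the level of a single beta gene is uncertain.

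In all, 9 beta genes reached 1 FPKM in at least 1 table. Pcdhb22 had 3.43 FPKM in KO and 2.57 FPKM in WT in the numbered pair, and 9.70 FPKM in KO and 5.62 FPKM in WT in the unnumbered pair. Pcdhb17 had 4.76 FPKM in KO and 2.65 FPKM in WT, and 5.52 FPKM in KO and 3.59 FPKM in WT. Both were higher in KO in each pair, with differences in log2(FPKM + 1) of 0.31 and 0.69 for Pcdhb22 and of 0.66 and 0.51 for Pcdhb17. Pcdhb18 had 1.57 FPKM in KO and 0.800 FPKM in WT in the numbered pair, and 1.32 FPKM in KO and 0.623 FPKM in WT in the unnumbered pair. Pcdhb21 had 1.76 FPKM in KO and 1.09 FPKM in WT, and 1.48 FPKM in KO and 0.707 FPKM in WT. These were likewise higher in KO in both pairs, by 0.51 and 0.51 in log2(FPKM + 1) for Pcdhb18 and by 0.40 and 0.54 for Pcdhb21. In the unnumbered pair their plain FPKM ratios, KO over WT, were 2.11 for Pcdhb18 and 2.09 for Pcdhb21, and the added 1 makes the differences of such low genes smaller than that.

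Pcdhb16 was also higher in KO in both pairs, at 0.830 FPKM in KO and 0.772 FPKM in WT and at 1.63 FPKM in KO and 1.18 FPKM in WT. Pcdhb19 was lower in KO in both, at 0.644 FPKM in KO and 1.19 FPKM in WT and at 1.75 FPKM in KO and 1.92 FPKM in WT. Pcdhb20 had 2.68 FPKM in KO and 2.40 FPKM in WT in the numbered pair, and 0.766 FPKM in KO and 0.870 FPKM in WT in the unnumbered pair. For these genes the differences were between -0.42 and 0.27 on the log2(FPKM + 1) scale. Pcdhb5 had 1.37 FPKM in KO and 0.0523 FPKM in WT in the numbered pair, and 0.308 FPKM in KO and 0.405 FPKM in WT in the unnumbered pair. Pcdhb14 had 2.40 FPKM in KO and 0.659 FPKM in WT in the numbered pair, and 0.484 FPKM in KO and 1.07 FPKM in WT in the unnumbered pair. These last genes were the members with the largest differences, 1.17 and 1.03, and both had the opposite sign in the unnumbered pair, at -0.10 and -0.48.

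**Figure D3:**
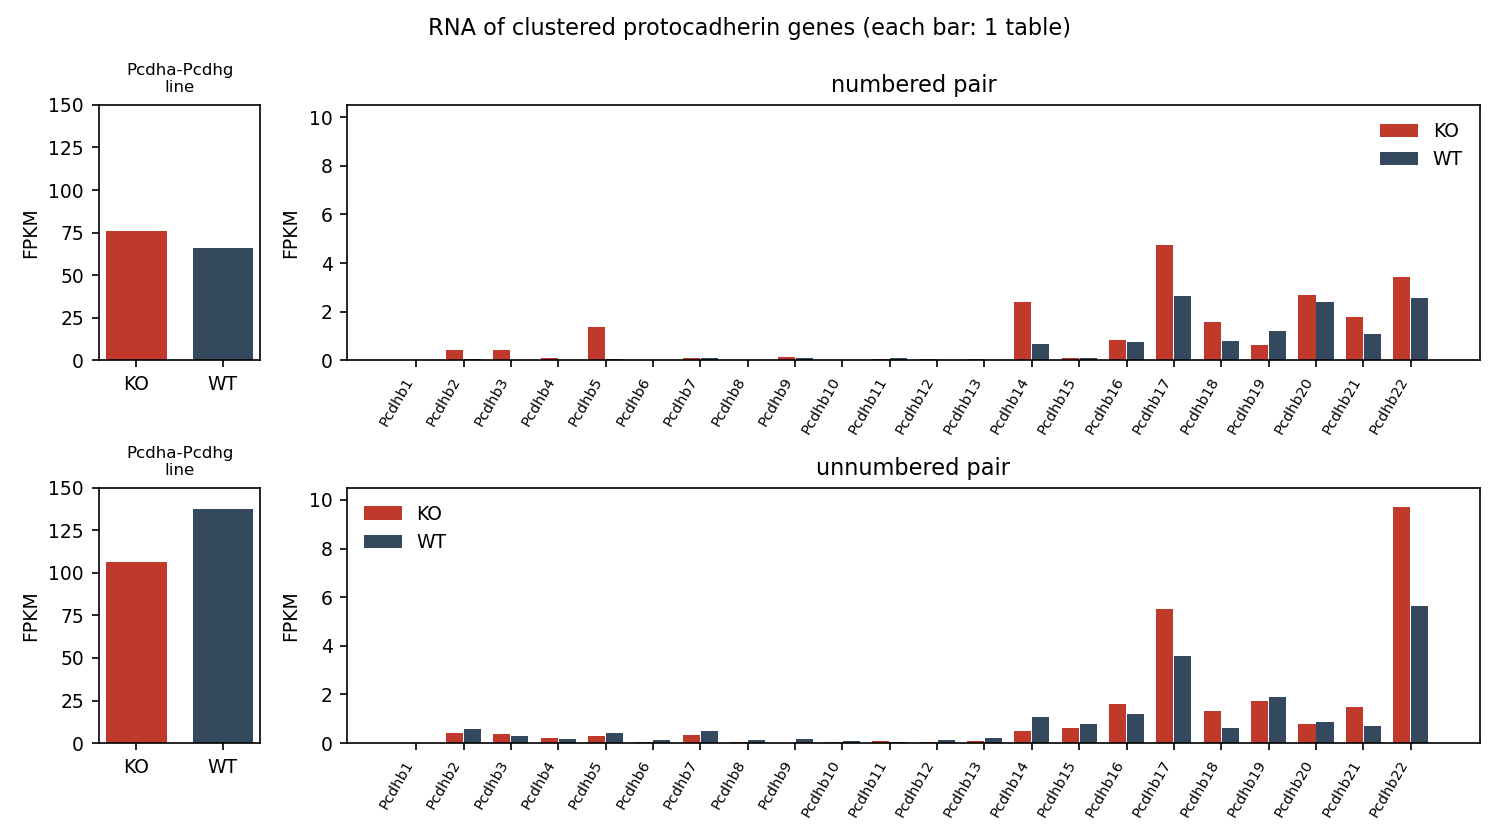
FPKM of the line of 37 Pcdha and Pcdhg genes (left) and of the 22 Pcdhb genes in their order along the chromosome (right), numbered pair above and unnumbered pair below, KO bars in red left of WT bars in blue, 1 table per bar. Pcdhb14 to Pcdhb22 hold most of the beta RNA in every table.

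Counts were taken over genes of at least 1 FPKM in either genotype, with a difference of at least 1 in log2(FPKM + 1) as the 2-fold mark. In the numbered pair 8 of the 22 beta genes passed this minimum, of which 2 (Pcdhb5 and Pcdhb14) were at least 2-fold higher in KO and 0 lower. Over all 11055 genes that passed there, 6.5% were higher in KO by the same mark and 15.7% lower. In the unnumbered pair 7 passed, with 0 higher and 0 lower, against 1.74% higher and 3.83% lower over 11687 genes. The median difference of the beta genes that passed was 0.46 for the numbered tables, against 0.06 over all genes, and 0.51 for the unnumbered ones, against 0.01. Some genes met the minimum in KO alone, namely Pcdhb5, Pcdhb14 and Pcdhb18 in the numbered pair and Pcdhb18 and Pcdhb21 in the unnumbered pair. Pcdhb19 in the numbered and Pcdhb14 in the unnumbered pair met it in WT alone. These counts and medians thus depend in part on the filter.

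Summed over the 22 genes, beta RNA was 20.9 FPKM in KO and 12.7 FPKM in WT in the numbered pair, and 25.3 FPKM in KO and 19.2 FPKM in WT in the unnumbered pair, log2 ratios of 0.72 and 0.40. Without Pcdhb22, the line of highest mean, the log2 ratios were 0.79 and 0.20, so the unnumbered value rested largely on that gene. By number of genes the pairs differed. KO was above WT for 17 genes and below for 4 in the numbered pair, and above for 8 and below for 13 in the unnumbered pair. Over all genes above 0 in either genotype, 59.8% were higher in KO in the numbered tables, against 49.5% in the unnumbered ones. Among genes between 0 and 1 FPKM, which include most beta genes, that share was 74.3% for the numbered tables, where 10 of 13 beta genes of that range were higher in KO. For the unnumbered tables it was 43.6%, and 3 of 14 beta genes were higher in KO. The share of low beta genes that were higher in KO was thus near that of low genes in general in the numbered tables, and below it in the unnumbered ones.

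The 9 beta genes whose start was called for H3K9me3 in WT only, Pcdhb1 to Pcdhb9, were low in RNA in both genotypes. Their sum was 2.59 FPKM in KO and 0.328 FPKM in WT in the numbered pair, where 8 genes were higher in KO, 0 lower and Pcdhb1 at 0. Of all genes between 0 and 1 FPKM, 74.3% were higher in KO there. The median difference of the 9 genes was 0.06. The equal value of 0.06 over all genes of at least 1 FPKM is no fair comparison, since the added 1 shrinks differences of such low genes more. Pcdhb5 alone gave 1.37 of the 2.59 FPKM. In the unnumbered pair the sum was 1.77 FPKM in KO and 2.34 FPKM in WT, with 2 genes higher and 6 lower in KO. Of all genes between 0 and 1 FPKM, 43.6% were higher in KO in that pair. These genes without the call in KO thus had more RNA in KO in one pair and not in the other. The 13 genes called in both genotypes, Pcdhb10 to Pcdhb22, summed to 18.3 FPKM in KO and 12.4 FPKM in WT in the numbered pair, and to 23.5 FPKM in KO and 16.8 FPKM in WT in the unnumbered pair. The beta genes with the most RNA had starts called for H3K9me3 in both genotypes. So had Pcdhb10 to Pcdhb13, which were at or below 0.201 FPKM in every table, and all 22 beta starts were called in WT. These calls therefore do not set apart beta genes by RNA level. The starts of Pcdhb17 and Pcdhb22 were also called for H3K27me3 in both, and those of Pcdhb19 and Pcdhb20 for H3K27me3 in KO only.

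**Figure D4:**
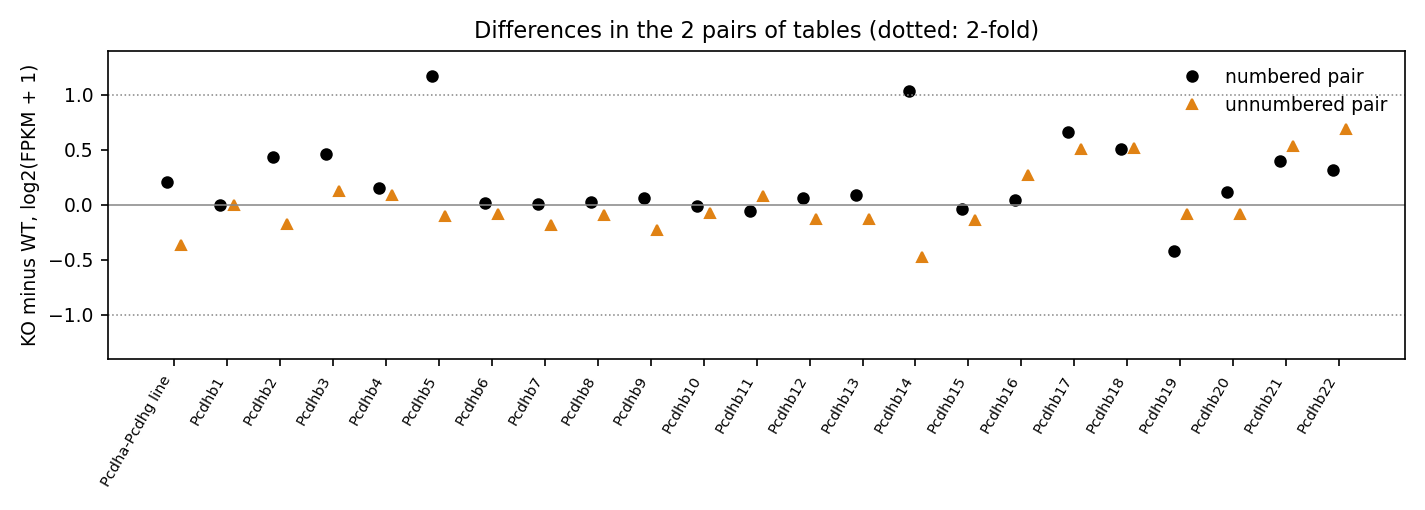
KO minus WT difference in log2(FPKM + 1) for the Pcdha-Pcdhg line and the 22 Pcdhb genes, circles for the numbered and triangles for the unnumbered pair, with the 2-fold mark dotted. Pcdhb5 and Pcdhb14 pass it in the numbered pair and lie below 0 in the unnumbered pair, while Pcdhb17, Pcdhb18, Pcdhb21 and Pcdhb22 lie above 0 in both.

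Several measured features of the cultures moved with genotype, and their part in the RNA values was not tested. In the numbered pair Xist, the RNA of the inactive X chromosome, had 0.0517 FPKM in KO and 19.5 FPKM in WT, and the Y-linked Ddx3y had 7.67 FPKM in KO and 0.0384 FPKM in WT, so genotype and sex of the cells cannot be told apart there. In the unnumbered pair Xist had 8.25 FPKM in KO and 5.89 FPKM in WT, and Ddx3y had 11.4 FPKM in KO and 21.7 FPKM in WT, so both were present in each genotype and the Y-linked RNA was lower in KO. The Y-linked Eif2s3y and Kdm5d differed there by -1.04 and -1.12 in log2(FPKM + 1). In the unnumbered pair all 7 macrophage markers examined were at least 2-fold lower in KO, with a sum of 3.36 FPKM in KO and 69.2 FPKM in WT. In bulk RNA, fewer cells of a type and less RNA per cell cannot be told apart. Neuronal markers summed to 32.1 FPKM in KO and 26.99 FPKM in WT in the numbered pair and to 58.4 FPKM in KO and 33.5 FPKM in WT in the unnumbered pair. Of these 12, Gap43 and Stmn2 passed the 2-fold mark upwards in KO in the numbered pair and Stmn2 and Map2 did so in the unnumbered one, and the defining markers Rbfox3 and Snap25 were listed at 0 in all 4 tables. No glial or epithelial marker passed 1 FPKM. The 10 fibroblast markers summed to 4963 FPKM in KO and 10864 FPKM in WT in the numbered pair and to 9893 FPKM in KO and 10918 FPKM in WT in the unnumbered pair. Single markers went different ways, with 1 at least 2-fold higher and 3 lower in KO in the numbered pair, and 1 higher and 2 lower in the unnumbered pair. Pdgfra had 20.8 FPKM in KO and 4.97 FPKM in WT in the numbered pair, and 2.37 FPKM in KO and 23.3 FPKM in WT in the unnumbered pair. Pml itself had 10.2 FPKM in KO and 15.0 FPKM in WT, and 4.22 FPKM in KO and 7.62 FPKM in WT. The table total of FPKM was 417149 in KO and 964392 in WT in the numbered pair, and 508803 in KO and 524638 in WT in the unnumbered pair.

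Among genes known to act on such clusters, Setdb1 and Stag1 passed the 2-fold mark, in the numbered pair only, and whether the pairs differ was not tested. Of 26 genes for CTCF, cohesin and its loaders, DNA methylation, H3K9 methylation and Polycomb, 25 were in the tables and 23 passed 1 FPKM in each pair, with a median difference of 0.45 in the numbered and -0.15 in the unnumbered tables. The numbered tables had 2 of them higher in KO by 2-fold and 0 lower, against the 6.5% and 15.7% given above for all genes. The unnumbered tables had none, with 0 higher and 0 lower, against 1.74% and 3.83%. Setdb1, the H3K9 methyltransferase gene, had 16.1 FPKM in KO and 6.35 FPKM in WT in the numbered pair, and 11.7 FPKM in KO and 13.0 FPKM in WT in the unnumbered pair. Stag1, a cohesin subunit gene, had 18.7 FPKM in KO and 8.73 FPKM in WT in the numbered pair. Ctcf had 24.1 FPKM in KO and 15.3 FPKM in WT, and 14.5 FPKM in KO and 16.8 FPKM in WT. Smchd1, a gene known to repress the clusters in mouse, had 21.3 FPKM in KO and 15.7 FPKM in WT, and 15.6 FPKM in KO and 16.8 FPKM in WT. Of 19 genes for intracellular partners such as Fyn, Ptk2 and the WAVE complex, 16 passed in each pair, with 0 higher and 0 lower by 2-fold and median differences of 0.17 and 0.18. The shares over all genes are those just given.

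Of 12 protocadherin genes outside the clusters, 4 passed 1 FPKM in the numbered and 7 in the unnumbered pair, with median differences of 0.72 and -0.27. Pcdh1 was at least 2-fold higher in KO in both, at 5.14 FPKM in KO and 0.391 FPKM in WT and at 2.59 FPKM in KO and 0.418 FPKM in WT. Pcdh19 had 16.1 FPKM in KO and 6.43 FPKM in WT in the numbered pair, and 20.5 FPKM in KO and 19.1 FPKM in WT in the unnumbered pair. None was 2-fold lower. Pcdh7 and Pcdh18 were the other abundant ones, between 13.3 and 46.8 FPKM.

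Other gene clusters served as a comparison for the start windows. Of 22 Hox genes whose strand was at hand, H3K27me3 was called at 19 in KO and 18 in WT and H3K9me3 at 13 in KO and 9 in WT. Of 940 olfactory receptor genes, H3K9me3 was called at 167 in KO and 565 in WT and H3K27me3 at 322 in KO and 214 in WT. The protocadherin and olfactory receptor starts thus both had fewer H3K9me3 calls and more H3K27me3 calls in KO, and the Hox starts had more calls of both marks. For the protocadherins the H3K27me3 difference was small, at 41 starts in KO and 38 in WT. Over the 17274 genes on other chromosomes H3K9me3 was called at 23.4% in KO and 18.6% in WT, and H3K27me3 at 33.7% and 35.2%. The Hox starts thus differed in H3K9me3 in the same direction as those genes. Olfactory receptor RNA had a median of 0 FPKM in all 4 tables, and Hox RNA a median of 2.67 FPKM in KO and 0.682 FPKM in WT in the numbered pair, and of 3.37 FPKM in KO and 2.91 FPKM in WT in the unnumbered pair, against the beta medians given above.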

How the data were processed

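The authors deposited 12 lists of ChIP regions and 4 RNA tables for 20 samples. The submitters' processing notes name the build mm10 and the tools Cuffdiff 2.2.1, Cufflinks 2.2.1, Bowtie 1.0.0 and TopHat2 2.0.8b, without their roles, and the region caller is not given in the sources used here. For H3.3, H3K9me3 and H3K27me3 the deposited lists hold a signal and a score per region, and for H3 and PML a score. The RNA tables deposited by the authors hold FPKM with numbered replicates pooled, and 0 columns of single samples were left unused. Read totals are not in these files, so depth is unknown and no interval was computed.

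With Python 3.11.15, numpy 2.4.6, scipy 1.17.1 and matplotlib 3.10.9, cover was computed from base 3000000 on. For RNA, log2(FPKM + 1) of WT was subtracted from that of KO. Genes on the lines of several names were left out of counts over all genes. RefSeq coordinates were GRCm38.p6, all cluster genes were taken to run towards higher coordinates, and the background of start windows leaves out chromosome 18, for which no strand was at hand. The cover and count steps were tested on simulated data. Genes were named when they stood on a line of several members, reached 1 FPKM in any table or were among the top 3 of a subcluster by mean FPKM. Members and lists were chosen with earlier results of these data known. The neighbouring genes, Ctcf, Smchd1, Pcdh7, Pcdh18, Xist, the Y-linked genes and the division of the clusters at Pcdhb10, at Pcdhb14 and at the C-type genes were chosen after the values were seen.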

Additional observations from a re-analysis of the deposited data

Results flagged for a closer look

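Differences between genotypes had opposite signs in the numbered and the unnumbered pair for 12 of the 23 lines. The 3 given here are the line of several genes and the beta genes that also passed the 2-fold mark in 1 pair. The line of 37 Pcdha and Pcdhg genes differed by 0.21 in log2(FPKM + 1), KO minus WT, in the numbered pair and by -0.36 in the unnumbered pair. Pcdhb5 differed by 1.17 in the numbered pair and by -0.10 in the unnumbered pair. Pcdhb14 differed by 1.03 in the numbered pair and by -0.48 in the unnumbered pair. Each pair has 1 table per genotype, so whether the pairs differ was not tested.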

How the results depend on the processing

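Of 106 recomputed values 18 moved and 0 changed sign. For cover, moved means beyond the binomial error of 1 kb bins. For counts it means over 1.5 times, and for log2 ratios at least 0.5. That binomial error treats the bins as independent, though they share long regions, and does not measure the spread between libraries. Many values could not move, since H3 had no region in the spans and each beta gene already had its own line. A cover difference of 0, as for H3.3 and H3, could not change sign. The tally is thus no measure of robustness. The log2 ratio of summed Pcdhb in the unnumbered pair was 0.20 without Pcdhb22, in place of 0.40. Over start windows alone the Pcdhg differences were 0 points for H3K9me3, in place of -6.11, and -5.11 for H3K27me3, in place of -2.78. Setting the median difference of all genes to 0 left 1 beta gene at least 2-fold higher in KO in the numbered pair, in place of 2. H3K9me3 cover of the 3 spans together, -38.6 percentage points in KO minus WT, was -17.3 over start windows alone and -22.3 over the 250 Mb of highest signal per library, an alternative chosen after the data were seen. H3K27me3 cover, 23.4 points, was 8.69 over start windows and 0 over the 250 Mb of highest signal. It was 31.7 with a signal of at least 1 and 16.9 with a signal of at least 3. Those cut-offs set signals of different libraries side by side. H3.3-HA cover, 0 points, was -5.16 with a signal of at least 3, which dropped the KO region though it ranked higher within its library. The cause of these shifts was not tested. Restricting Pcdha and Pcdhg to lines of 1 gene, or dropping their highest line, gave no value, since they share 1 line. No paired analysis was possible because the numbered replicates were pooled into 1 column per genotype. Leaving out a replicate was not possible for the same reason. With unknown read depth, a call missing from 1 library cannot be told apart from a shallower library.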
